A study of Homo sapiens with 12 samples.

Results

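A late switch in gene expression was examined in H9 cells, which are human embryonic stem cells of an established line, as they were taken towards γδ T cells in culture, by setting libraries of days 20 and 25 against libraries of days 10 and 15. A gene was counted as part of the switch when the mean of the late days differed from the mean of the early days at an adjusted p under 0.05 and when both late days lay on the same side of both early days. Of 20183 genes tested, 15855 (78.6%) differed between late and early days by the test alone, 7987 (39.6%) higher and 7868 (39%) lower. With the condition on sides, 10678 genes (52.9%) passed, 5787 (28.7%) higher and 4891 (24.2%) lower over the late days. Another 8941 genes crossed, with the late days not on 1 side of both early days. Scaled by library totals alone, the split was 6812 higher and 3245 lower, with the median change of all genes moved to 0.26 on the log2 scale.

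The late group held 3 libraries of day 20, labelled T progenitors, and 3 of day 25, labelled mature γδ T cells. The early group held 3 libraries of day 10, labelled haematopoietic progenitors, and 3 of day 15, labelled T progenitors like those of day 20. All 12 came from wild-type H9 cells, a single line kept on mouse embryonic fibroblast feeders before differentiation, were marked as cytokine-induced and carry 1 batch in the labels. Mesoderm was induced with CHIR99021, BMP4, activin A and Rock inhibitor. VEGF and bFGF followed, later with Flt3L, IL-7, SCF and SB431542. From day 10 the cells were in serum medium with DLL4, a ligand of Notch, beside SCF, Flt3L and IL-7. Whether replicates of a day were grown apart is not in the labels, so p-values here rest on the spread among libraries alone, and that spread may be technical.

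Libraries held between 27026196 and 39811230 counts, and the first principal component, with 57.2% of the variance, set the late libraries apart from the early ones. Levels are CPM, counts scaled to library size after TMM correction, and tests are edgeR's quasi-likelihood test with Benjamini-Hochberg adjusted p over all tested genes. Log2 changes are late over early days with their SE, and where a day had no count the fold is given from the means of the late and early libraries. A log2 change weighs the days of a side equally on the log scale, so with a day near 0 it stands for a larger fold than the ratio of means. A level is not a cell number: in bulk RNA, fewer cells of a type and less RNA per cell cannot be told apart. Among markers of the labelled T lineage, the CD3 chains were near the detection limit. CD3D had 29 counts and CD3G 14 counts over all late libraries, all at day 20, and neither had a count at day 25, where the floor of 3 counts over the day is 0.0287 CPM. Summed over 10 T-cell markers, the level was 30.3 to 32.6 CPM at day 20 and 12.3 to 15.2 CPM at day 25, against 19.7 to 23.2 CPM at day 10 and 24.7 to 31.1 CPM at day 15, most of it from TRGC1 and CD7 at day 25.

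Blood lineages share a progenitor whose fate is set by competing transcription factors. GATA1, with TAL1 and KLF1, drives red cell and megakaryocyte genes by binding GATA boxes, whereas PU.1 (SPI1) and the C/EBP factors drive granulocyte and macrophage genes. Macrophages are marked by lysosomal hydrolases, scavenger and Fc receptors and complement C1q, and lysosomal genes as a group are known targets of TFEB through CACGTG motifs. Notch ligands such as DLL4 steer progenitors towards T cells, in which the CD3 chains and the T-cell receptor are then made.

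Promoters of genes from each side of the switch are shown as examples of where motifs of the factors named above stand. Whether those factors act on these genes was not tested. Sequences are the 250 bases upstream of the RefSeq start in GRCh38.p14, printed 5′ to 3′ on the gene's strand. HEMGN, a nuclear protein of red cell precursors, and RHAG, the Rh-associated glycoprotein, fell the most among erythroid genes with a GATA box, and capitals mark that box. They lie at chr9:97944853-97945102 and chr6:49636840-49637089, both on the minus strand.
HEMGN: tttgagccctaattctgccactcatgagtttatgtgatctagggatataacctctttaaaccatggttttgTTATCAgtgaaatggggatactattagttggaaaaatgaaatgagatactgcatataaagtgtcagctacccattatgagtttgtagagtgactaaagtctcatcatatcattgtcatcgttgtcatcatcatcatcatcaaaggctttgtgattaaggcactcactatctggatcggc
RHAG: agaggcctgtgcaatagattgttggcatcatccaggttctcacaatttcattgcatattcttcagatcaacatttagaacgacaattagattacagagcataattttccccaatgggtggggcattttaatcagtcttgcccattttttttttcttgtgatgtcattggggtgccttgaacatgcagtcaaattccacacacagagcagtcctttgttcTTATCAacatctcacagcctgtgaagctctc

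MMP8, the neutrophil collagenase, CD14, the lipopolysaccharide co-receptor, and CHIT1, the macrophage chitinase, stand for genes higher over the late days. Capitals mark a PU box in CD14, and a PU box together with C/EBP motifs in MMP8 and CHIT1. The CHIT1 window also holds a GATA box, left in lower case. The windows are chr11:102724955-102725204, chr5:140633176-140633425 and chr1:203229674-203229923, all on the minus strand.
MMP8: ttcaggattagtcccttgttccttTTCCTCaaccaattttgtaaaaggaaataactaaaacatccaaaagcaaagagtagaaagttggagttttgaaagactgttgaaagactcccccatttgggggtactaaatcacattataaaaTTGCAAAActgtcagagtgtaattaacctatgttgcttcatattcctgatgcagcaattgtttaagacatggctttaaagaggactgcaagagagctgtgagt
CD14: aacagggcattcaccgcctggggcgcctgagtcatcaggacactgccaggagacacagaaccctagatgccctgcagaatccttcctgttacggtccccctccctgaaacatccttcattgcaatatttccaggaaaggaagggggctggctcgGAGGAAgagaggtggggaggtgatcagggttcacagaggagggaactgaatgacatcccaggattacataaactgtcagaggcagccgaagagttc
CHIT1: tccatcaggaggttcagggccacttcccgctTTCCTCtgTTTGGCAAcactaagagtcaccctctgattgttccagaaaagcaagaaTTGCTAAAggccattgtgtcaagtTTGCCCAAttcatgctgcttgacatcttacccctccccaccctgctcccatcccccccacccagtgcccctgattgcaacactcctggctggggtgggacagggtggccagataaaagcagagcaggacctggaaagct

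LAMP1, a membrane protein of the lysosome, and CTSD, the lysosomal protease cathepsin D, stand for the lysosomal genes, with capitals at CACGTG. Their windows are chr13:113296989-113297238 on the plus strand, with 5 such motifs, and chr11:1763928-1764177 on the minus strand, with 1.
LAMP1: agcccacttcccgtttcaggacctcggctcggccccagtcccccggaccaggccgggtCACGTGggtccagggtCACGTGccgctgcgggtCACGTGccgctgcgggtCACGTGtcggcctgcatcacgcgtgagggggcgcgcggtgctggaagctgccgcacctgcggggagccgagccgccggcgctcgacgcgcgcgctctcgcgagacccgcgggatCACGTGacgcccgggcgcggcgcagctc
CTSD: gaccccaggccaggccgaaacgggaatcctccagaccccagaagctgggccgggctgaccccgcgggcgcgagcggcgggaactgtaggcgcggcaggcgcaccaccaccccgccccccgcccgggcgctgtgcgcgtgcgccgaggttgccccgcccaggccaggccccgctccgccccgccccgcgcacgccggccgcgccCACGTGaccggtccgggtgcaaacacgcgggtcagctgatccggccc

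Motifs were searched on both strands in 14030 tested genes with a window, without a test. The GATA box was spelled AGATAA or TGATAA, the PU box GAGGAA, the C/EBP motif TTGCNNAA and the lysosomal motif CACGTG, and no spelling can lie inside another. A GATA box stood in 9.08% of all windows, in 14.8% of windows of late-lower genes and in 10.6% of windows of late-higher genes, taking in each case genes whose nearest late and early days were at least 2-fold apart. It stood in 6 of 13 windows of the erythroid genes (46.2%: ALAS2, EPB42, GYPE, HEMGN, RHAG and RHD) and in 5 of 20 of the platelet and megakaryocyte genes (25%). A PU box stood in 23.5% of all windows, in 7 of 16 neutrophil granule genes (43.8%), in 8 of 20 Fc and inhibitory receptors (40%) and in 7 of 19 macrophage genes (36.8%), but also in 7 of 20 of the late-lower platelet and megakaryocyte genes (35%). Over late-higher genes with nearest days at least 2-fold apart its share was 26.5%, near that of all windows. The C/EBP motif stood in 6.56% of all windows and in 7 windows each of the neutrophil and macrophage genes, in 5 of 20 of the platelet and megakaryocyte genes and in none of 20 Fc and inhibitory receptors. CACGTG stood in 8.23% of all windows, in 6 of 18 lysosomal genes (33.3%) and in 6.65% of late-higher windows at least 2-fold apart. Of the 6, CTSD, GAA, LAMP1 and MCOLN1 were higher over the late days, while ATP6V0D1 and CTSA crossed. Base composition moved with these shares: the median GC content was 64% over all windows, 52.8% in the erythroid and 54.4% in both the macrophage and neutrophil windows, but 68.8% in the lysosomal ones, and its part in the shares was not tested. A match is a run of letters, not a bound site.

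**Figure D1:**
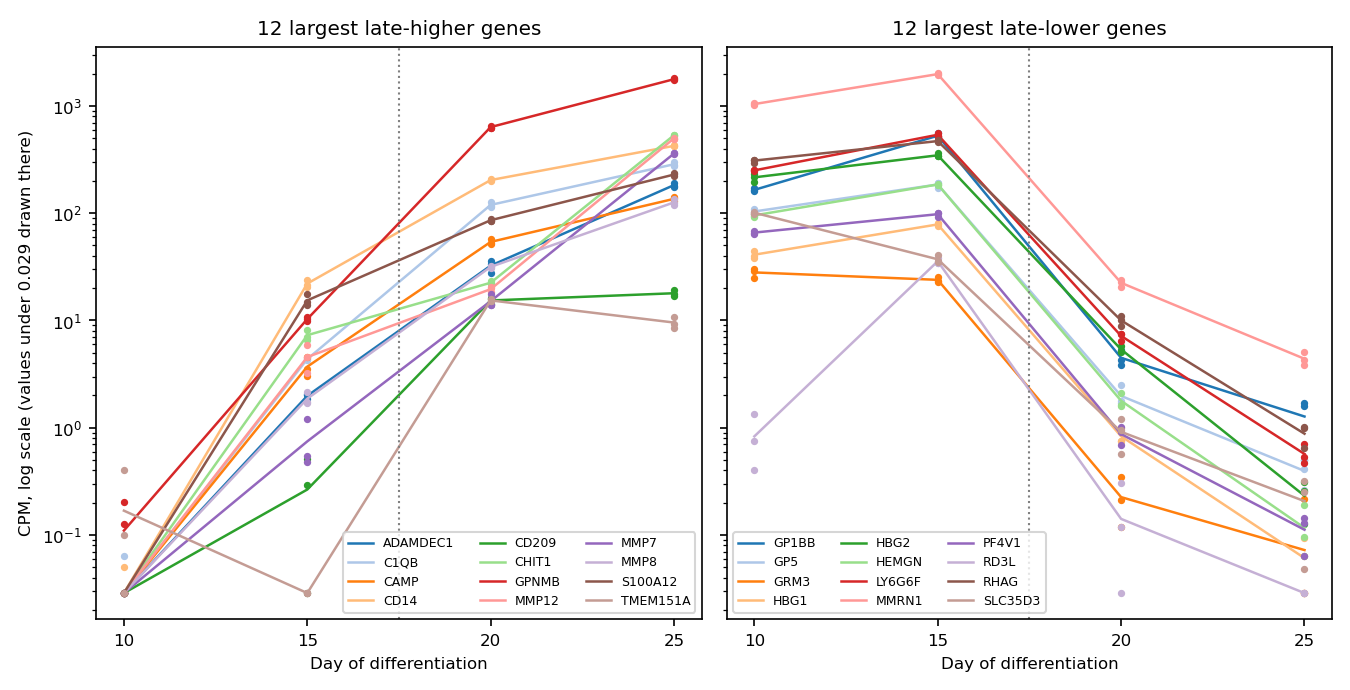
CPM on a log10 axis for the 12 genes with the largest late rise (left) and the 12 with the largest late fall (right), by day in order from 10 to 25. Points are libraries and lines run through day means, with values under the floor of 3 counts over a day drawn at that floor. The dotted line parts the early from the late days, and each gene's 6 late libraries lie on one side of its 6 early libraries.

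Genes of platelets and red cells stood among the largest late falls. All 24 tested genes of the platelet and megakaryocyte list were lower over the late days, against 24.2% of all tested genes, with a median log2 change of -5.37, where the median over all tested genes was -0.01. Of the 27 tested erythroid genes, 23 were lower, none was higher and 4 crossed, with a median of -5.13, or -4.22 with days at 0 counts set at the floor. Markers chosen for each lineage followed the same course: 4 megakaryocyte markers summed to 255 to 259 CPM at day 20 and 58.1 to 61.9 CPM at day 25, against 3607 to 3939 CPM at day 10 and 14089 to 14842 CPM at day 15.

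THBS1, the platelet matrix protein thrombospondin 1, lay between 499.8 and 908 CPM over the late libraries (median 711) and between 9217 and 20406 CPM over the early ones (median 14671). The 6 late libraries were all far below the 6 early ones, and the day 15 libraries were the highest. Its log2 change was -4.32 ± 0.02 (SE; adjusted p = 6.9e-60). ITGA2B, the platelet fibrinogen receptor chain, lay between 43.6 and 140 CPM over the late libraries (median 93.4) and between 2008 and 6022 CPM over the early ones (median 3946), a log2 change of -5.45 ± 0.02 (adjusted p = 1.4e-60). TUBB1, the tubulin of the platelet rim, lay between 6.58 and 52.2 CPM over the late libraries (median 27.2) and between 385 and 4763 CPM over the early ones (median 2536). Day 25 was the lowest day and day 15 the highest for both genes, with no overlap between late and early libraries. The log2 change of TUBB1 was -6.19 ± 0.03 (adjusted p = 9.6e-60).

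The glycoprotein complex that holds platelets to von Willebrand factor fell together. GP9 lay between 1.59 and 12.8 CPM over the late libraries (median 7.18) and between 308 and 964 CPM over the early ones (median 602), a log2 change of -6.85 ± 0.04 (adjusted p = 1.1e-56). GP5 lay between 0.265 and 2.48 CPM over the late libraries (median 1.10) and between 98.6 and 193 CPM over the early ones (median 141), with a change of -7.31 ± 0.07 (adjusted p = 3e-48). GP1BB lay between 0.504 and 5.36 CPM over the late libraries (median 2.77) and between 160 and 564 CPM over the early ones (median 340.0), with a change of -6.92 ± 0.11 (adjusted p = 1.3e-13). No late library of any of the 3 reached its lowest early library. PF4, the platelet chemokine, averaged 55.5 ± 0.46 CPM at day 20 and 5.44 ± 0.2 CPM at day 25, against 1004 ± 111 CPM at day 10 and 2886 ± 186 CPM at day 15 (SD, n = 3 each). Its near-copy PF4V1 was lower too, with a change of -7.96 ± 0.09 on the log2 scale (adjusted p = 1.1e-46), and both stand on chromosome 4, where counting could move reads between them. Among the genes with the largest fall were also MMRN1, a carrier of factor V in platelet granules, at -7.18 ± 0.04 (adjusted p = 7.7e-56), SLC35D3, a protein of dense granules, at -7.18 ± 0.11 (adjusted p = 2e-38), and LY6G6F at -7.51 ± 0.05 (adjusted p = 4.2e-56).

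HEMGN, on the side of the red cells, lay between 0.064 and 2.12 CPM over the late libraries (median 0.885) and between 92.5 and 189 CPM over the early ones (median 140). Its mean was 148-fold lower over the late libraries, which did not overlap the early ones, and the log2 change was -8.17 ± 0.07 (adjusted p = 2.4e-50). RHAG lay between 0.64 and 11 CPM over the late libraries (median 4.93) and between 297 and 478 CPM over the early ones (median 391), a log2 change of -7.00 ± 0.05 (adjusted p = 2.3e-54). The fetal globin HBG2 averaged 5.37 ± 0.37 CPM at day 20 and 0.232 ± 0.096 CPM at day 25, against 216 ± 19.9 CPM at day 10 and 347 ± 13 CPM at day 15 (SD, n = 3 each). HBG1, its neighbour on chromosome 11 and nearly identical in sequence, fell by 7.97 on the log2 scale, and the split of reads between them is uncertain. GRM3, a glutamate receptor, and RD3L stood among the 12 largest falls outside these lists, 175-fold and 258-fold lower by the means (adjusted p = 6.1e-31 and 8.4e-13).

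The transcription factors of these lineages fell with their genes. Of 18 tested erythro-megakaryocytic factors, 14 were lower (77.8%), against 24.2% of all tested genes. Another 3 crossed and 1, NFIA, was higher, with a median log2 change over the list of -2.55. GATA1 lay between 6.87 and 27.4 CPM over the late libraries (median 16.7) and between 298 and 482 CPM over the early ones (median 378). Day 25 was the lowest and day 15 the highest, with no overlap, and the log2 change was -4.74 ± 0.04 (adjusted p = 6.9e-53). TAL1 changed by -5.14 ± 0.03 (adjusted p = 5.4e-59), GFI1B, a repressor needed for platelets, by -5.23 ± 0.03 (adjusted p = 6.6e-56), and KLF1, the activator of adult globin, by -5.39 ± 0.10 (adjusted p = 3.7e-38). MEIS1, a HOX cofactor active in stem cells and megakaryocytes, averaged 38.9 ± 3.25 CPM at day 20 and 17.1 ± 0.59 CPM at day 25, against 244 ± 9.95 CPM at day 10 and 992 ± 5.69 CPM at day 15 (SD, n = 3 each). RUNX1 and LMO2, which stem cells also use, were lower by less, with changes of -0.99 ± 0.03 (adjusted p = 1.2e-31) and -0.94 ± 0.03 (adjusted p = 1.1e-27). Endothelial genes, which blood-forming endothelium shares, were lower in 14 of 22 tested (63.6%), against 24.2% of all tested genes. Another 3 were higher and 5 crossed, with a list median of -1.98, or -1.16 without day 10. KDR, the VEGF receptor, averaged 142 ± 5.54 CPM at day 20 and 41 ± 1.03 CPM at day 25, against 153 ± 2.57 CPM at day 10 and 1954 ± 25.7 CPM at day 15 (SD, n = 3 each), so day 20 lay just under day 10. CD34, the progenitor antigen, was lower, with a change of -3.13 ± 0.14 on the log2 scale (adjusted p = 2.5e-24). Of the other progenitor markers, KIT was higher, MYB crossed and SPINK2 stayed near 1 CPM or under. The 4 markers summed to 224 to 230.4 CPM at day 20 and 283 to 293 CPM at day 25, against 124 to 133 CPM at day 10 and 73.5 to 79.8 CPM at day 15. Most of the sum at day 25 was KIT, at 236 CPM, with MYB at 51 CPM and CD34 at 1.1 CPM.

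Macrophage genes stood high in the late rise. All 29 tested genes of the macrophage list were higher over the late days, against 28.7% of all tested genes, with a median log2 change of 4.71, and 26 of them were higher at day 25 than at day 20. The 4 macrophage markers CD14, CSF1R, C1QA and CD68 summed to 1707 to 1783 CPM at day 20 and 3764 to 3913 CPM at day 25, against 92.4 to 102 CPM at day 10 and 485 to 539 CPM at day 15. CSF1R, the receptor of the macrophage growth factor, lay between 727 and 1391 CPM over the late libraries (median 1054) and between 23.9 and 83.3 CPM over the early ones (median 49.5). The late libraries were all higher, day 25 most, and the log2 change was 4.51 ± 0.03 (adjusted p = 2.6e-54). CD14 averaged 204 ± 4.53 CPM at day 20 and 425 ± 5.19 CPM at day 25, against 0.0167 ± 0.029 CPM at day 10, where it had 2 counts, and 22.1 ± 1.74 CPM at day 15 (SD, n = 3 each). Its mean was 28.4-fold higher over the late libraries, with no overlap (adjusted p = 6.1e-53).

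GPNMB, a glycoprotein of lipid-laden macrophages, lay between 621 and 1810 CPM over the late libraries (median 1196) and between 0 and 10.8 CPM over the early ones (median 5.04). No early library came near a late one, and the late mean was 231-fold higher (adjusted p = 1.5e-53). CHI3L1, a chitinase-like secreted protein, averaged 828 ± 14.8 CPM at day 20 and 8655 ± 151 CPM at day 25, against 0.888 ± 0.523 CPM at day 10 and 142 ± 8.4 CPM at day 15 (SD, n = 3 each). The related enzyme CHIT1 averaged 22.5 ± 0.68 CPM at day 20 and 534 ± 3.63 CPM at day 25, against no count at day 10 and 7.29 ± 0.8 CPM at day 15 (SD, n = 3 each). Both were far higher at day 25 than at day 20. SPP1, the secreted phosphoprotein osteopontin, averaged 1928 ± 54.3 CPM at day 20 and 8162 ± 257 CPM at day 25, against 1.94 ± 0.18 CPM at day 10 and 391 ± 3.6 CPM at day 15 (SD, n = 3 each), a log2 change of 7.17 ± 0.03 (adjusted p = 8.5e-62). C1QB, a chain of complement C1q, was 92.5-fold higher over the late libraries by the ratio of means (adjusted p = 5.6e-51).

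Matrix metalloproteinases supplied 3 of the 12 largest rises, and all 3 genes lie close together on chromosome 11 of GRCh38: MMP7 at chr11:102520508-102530753, MMP8 at chr11:102711795-102727050 and MMP12 at chr11:102862736-102875034. MMP7, matrilysin, lay between 14.0 and 365 CPM over the late libraries (median 186) and between 0 and 1.21 CPM over the early ones (median 0.242). The day 25 libraries were the highest and the day 10 libraries had no count, so the fold is given from the means: 503-fold higher over the late libraries (adjusted p = 2e-32). MMP12, the macrophage elastase, averaged 19.6 ± 1.02 CPM at day 20 and 499 ± 7.33 CPM at day 25, against 0 counts at day 10 and 4.56 ± 1.31 CPM at day 15 (SD, n = 3 each), 114-fold higher by the means (adjusted p = 7e-36). MMP8 was 84.6-fold higher in the same terms (adjusted p = 9.6e-43). ADAMDEC1, a secreted metalloproteinase relative made by macrophages, was 109-fold higher (adjusted p = 6e-42), and TMEM151A, a membrane protein, 148-fold (adjusted p = 5e-24).

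Genes of immune receptors rose in near-complete sets. All 25 tested Fc and inhibitory immune receptors were higher, against 28.7% of all tested genes (median log2 change 3.90). So were 21 of 24 pattern recognition and scavenger receptors (median 4.09, the other 3 crossing) and 13 of 16 chemokine receptors (median 3.67, the other 3 crossing). Without day 10 these 3 medians were 2.19, 2.69 and 1.74 in the same order. A gene near 0 over the early days, such as LILRB4 with 8 counts there, could pass the filter on low counts only through its late libraries. These counts of higher receptors are therefore a description. TLR8, a sensor of RNA, lay between 41.4 and 151 CPM over the late libraries (median 93.5) and between 0 and 4.47 CPM over the early ones (median 1.68), a change of 7.08 ± 0.09 (adjusted p = 9.4e-44). FCGR3A, the CD16a receptor for IgG, lay between 99.2 and 107 CPM over the late libraries (median 103) and between 0 and 8.99 CPM over the early ones (median 4.31). Neither overlapped, and the change of FCGR3A was 7.38 ± 0.09 (adjusted p = 3.2e-45). By the ratio of means TLR8 was 49.2-fold and FCGR3A 23.4-fold higher, both being near 0 at day 10. LILR and FCGR genes are alike enough that reads may be shared within each family. All 6 tested genes of the MS4A cluster were higher, with a median of 5.66, or 5.49 with days at 0 counts at the floor and 3.26 without day 10. Lysosomal genes were higher in 22 of 28 tested (78.6%), against 28.7% of all tested genes. None was lower and 6 crossed, with a median of 1.62. CTSD lay between 2691 and 5749 CPM over the late libraries (median 4221) and between 178 and 930 CPM over the early ones (median 505), with no overlap and a log2 change of 3.31 ± 0.03 (adjusted p = 1.5e-47). Cathepsin B (CTSB) averaged 2202 ± 41.7 CPM at day 20 and 6666 ± 71.1 CPM at day 25, against 75.7 ± 3.52 CPM at day 10 and 282 ± 9.71 CPM at day 15 (SD, n = 3 each). LAMP1 rose less, by 1.52 ± 0.03 on the log2 scale (adjusted p = 3.1e-40). TFEB, a regulator of lysosomal genes, lay between 14.2 and 35.4 CPM over the late libraries (median 22.8) and between 0.709 and 6.19 CPM over the early ones (median 2.81), without overlap, a log2 change of 3.31 ± 0.10 (adjusted p = 4.9e-30).

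Genes of antigen presentation by MHC class II and of dendritic cells were higher in 20 of 25 tested (80%), against 28.7% of all tested genes. They were lower in 1, HLA-DOB, and crossing in 4, with a median of 4.17. HLA-DRA, the invariant partner of the DR molecule, lay between 118 and 139 CPM over the late libraries (median 127) and between 0.0502 and 6.62 CPM over the early ones (median 2.48). It was nearly level over the late days, did not overlap the early libraries and changed by 7.75 ± 0.08 on the log2 scale (adjusted p = 2.4e-48), or 45.4-fold by the ratio of means. CIITA, the activator of class II genes, changed by 3.92 ± 0.18 (adjusted p = 5.5e-11), and CD74, the invariant chain, by 4.23 ± 0.03 (adjusted p = 2.1e-53). Reads of HLA-DRB1 may be shared with HLA-DRB5.

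Neutrophil granule genes were higher in 15 of 21 tested (71.4%), against 28.7% of all tested genes. None was lower and 6 crossed, with a median of 4.37, but the genes of the list did not share a peak. The median was 1.55 without day 10 and 6.97 without day 15. MPO, myeloperoxidase of the earliest granules, lay between 4297 and 11912 CPM over the late libraries (median 8101) and between 368 and 3614 CPM over the early ones (median 1927). Day 20 was the highest day, day 25 lay above day 15 and the groups did not overlap, with a log2 change of 2.63 ± 0.02 (adjusted p = 1.5e-53). Day 25 was lower than day 20 for MPO, with a log2 change of -1.45 (adjusted p = 2.4e-37). The 3 neutrophil markers MPO, ELANE and AZU1 summed to 13450 to 13563 CPM at day 20 and 5417 to 5555 CPM at day 25, against 377 to 403 CPM at day 10 and 4063 to 4281 CPM at day 15. CAMP, the cathelicidin of specific granules, averaged 54 ± 2.92 CPM at day 20 and 136 ± 6.99 CPM at day 25, against no count at day 10 and 3.71 ± 0.76 CPM at day 15 (SD, n = 3 each). S100A12, a calcium-binding protein of neutrophils, was 20.5-fold higher over the late libraries by the means (adjusted p = 9.1e-46). Both were higher at day 25 than at day 20, CAMP by 1.33 on the log2 scale (adjusted p = 1.8e-21) and S100A12 by 1.41 (adjusted p = 2.3e-25). LCN2, lipocalin 2 of specific granules, crossed, with 23.6 ± 2.11 CPM at day 20 and 49.7 ± 1.25 CPM at day 25, against 18.7 ± 2.31 CPM at day 10 and 182 ± 6.78 CPM at day 15 (SD, n = 3 each). Eosinophil granule markers were no part of the switch: EPX, PRG2 and CLC summed to 5049 to 5223 CPM at day 20 and 731 to 757 CPM at day 25, against 104 to 112 CPM at day 10 and 8204 to 8731 CPM at day 15.

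Of 20 tested myeloid transcription factors, 15 were higher (75%), against 28.7% of all tested genes, none was lower and 5 crossed. The list median was 3.19, or 2.15 without day 10 and 4.87 without day 15. SPI1, which encodes PU.1, lay between 395 and 522 CPM over the late libraries (median 447) and between 53.4 and 129 CPM over the early ones (median 84.0). All late libraries were higher, with a log2 change of 2.45 ± 0.03 (adjusted p = 9.8e-45). CEBPA, a granulocyte and monocyte regulator, changed by 3.35 ± 0.06 (adjusted p = 1.4e-37) and IRF8, a monocyte and dendritic cell regulator, by 4.13 ± 0.06 (adjusted p = 8e-43). The largest change of the list was that of BHLHE41, which averaged 52.9 ± 3.54 CPM at day 20 and 176 ± 6.11 CPM at day 25, against 0.147 ± 0.136 CPM at day 10 and 2.26 ± 0.61 CPM at day 15 (SD, n = 3 each).

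**Figure D2:**
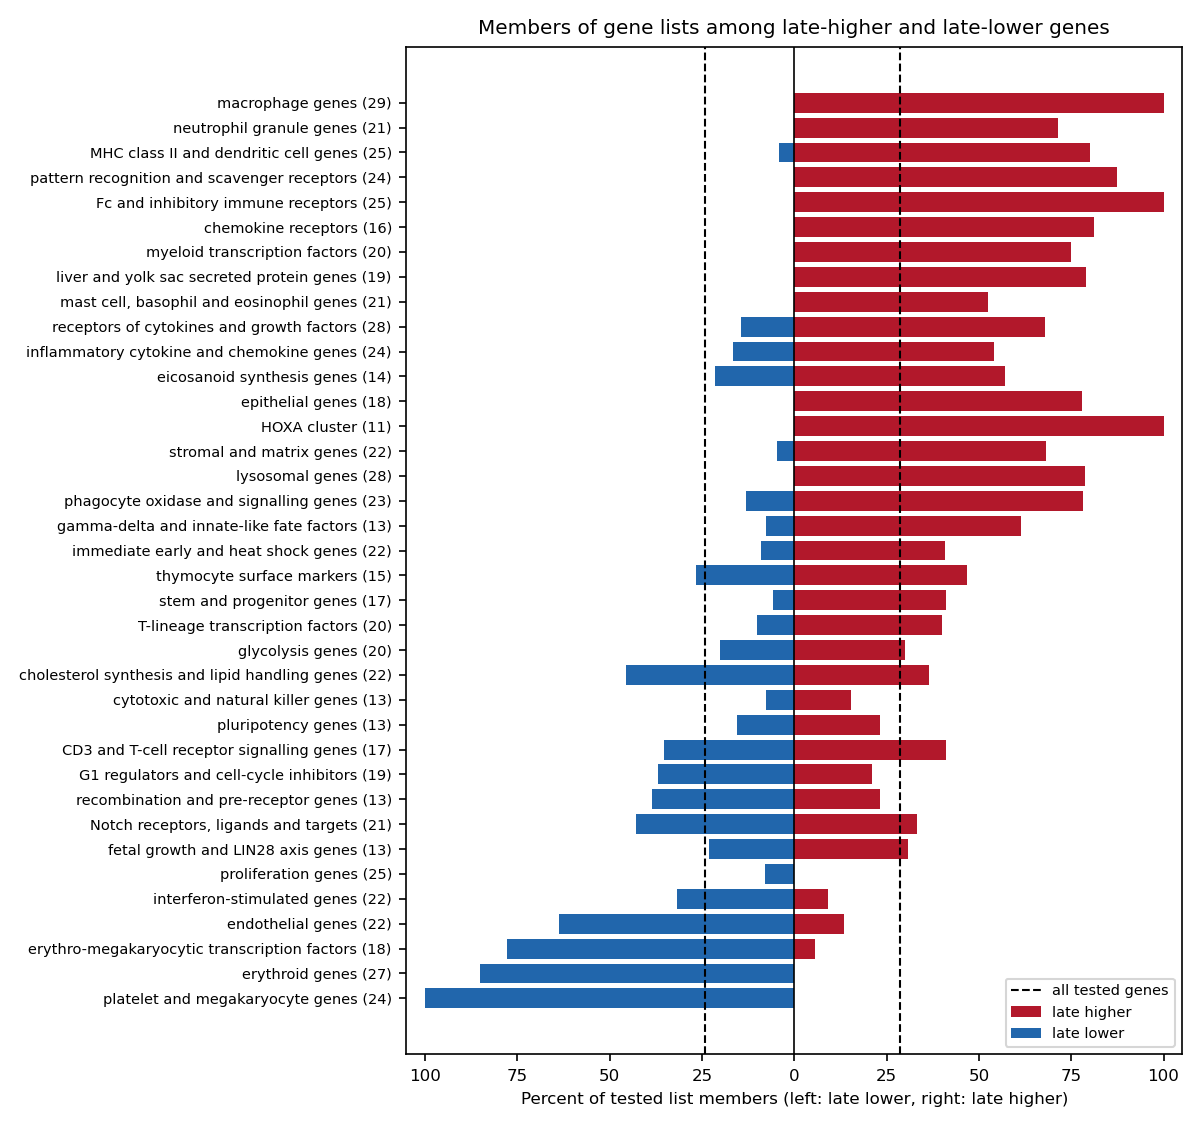
Percent of the tested genes of each list that were higher (red, to the right) or lower (blue, to the left) over the late days, ordered by median log2 change, with the number tested in brackets. Lists with at least 10 tested genes are shown, and dashed lines give the shares among all tested genes, 28.7% higher and 24.2% lower. The macrophage list lies wholly on the higher side and the platelet and megakaryocyte list wholly on the lower side.

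Some relatives with like functions parted, one gene higher and the other lower over the late days. These pairs were picked after their values were seen. Of 28 tested cytokine and growth factor receptors, 19 were higher (67.9%) and 4 lower (14.3%), against 28.7% and 24.2% of all tested genes. EPOR, KDR and TEK were among the lower ones, and 5 crossed. CSF3R, the G-CSF receptor, lay between 448 and 501 CPM over the late libraries (median 475) and between 6.68 and 98.0 CPM over the early ones (median 52.0), a change of 4.10 ± 0.03 (adjusted p = 5.9e-52). EPOR, the erythropoietin receptor, changed by -2.73 ± 0.05 (adjusted p = 4.8e-40) and CSF2RA, a chain of the GM-CSF receptor, by 3.92 ± 0.07 (adjusted p = 4.7e-39). Among receptors of factors in the medium, KIT, which binds SCF, averaged 117 ± 3.02 CPM at day 20 and 236 ± 6.57 CPM at day 25, against 52 ± 4.23 CPM at day 10 and 20.2 ± 0.86 CPM at day 15 (SD, n = 3 each). IL7R, which binds IL-7, lay between 45.2 and 64.3 CPM over the late libraries (median 53.4) and between 0.191 and 26.4 CPM over the early ones (median 12.4), with a change of 3.95 ± 0.08 (adjusted p = 1.3e-35).

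Enzymes of the same step moved apart as well. HK1, a hexokinase used by most cells, lay between 173 and 252 CPM over the late libraries (median 210.1) and between 588 and 1022 CPM over the early ones (median 805), a log2 change of -1.91 ± 0.02 (adjusted p = 3.4e-46). HK3, a hexokinase of myeloid cells, lay between 115 and 398 CPM over the late libraries (median 260.1) and between 0.201 and 54.1 CPM over the early ones (median 21.7), a change of 5.45 ± 0.11 (adjusted p = 1.5e-13). The groups overlapped for neither gene. Glucose transporters parted in the same way, SLC2A3 changing by -2.53 ± 0.02 (adjusted p = 9e-51) and SLC2A1 by 2.50 ± 0.03 (adjusted p = 3.1e-46), although SLC2A1 averaged 566 ± 11.4 CPM at day 20 and 138 ± 3.11 CPM at day 25 (SD, n = 3 each). The platelet lipoxygenase ALOX12 changed by -3.93 ± 0.04 (adjusted p = 1.6e-47) and the leukocyte lipoxygenase ALOX5 by 3.58 ± 0.05 (adjusted p = 3.6e-42). PTGS1, the constitutive cyclooxygenase of platelets, changed by -2.65 ± 0.02 (adjusted p = 1.9e-51) and the inducible PTGS2 by 3.65 ± 0.06 (adjusted p = 5.7e-41). Of the D-type cyclins that drive entry into the cell cycle, CCND3 changed by -3.14 ± 0.02 (adjusted p = 1.5e-52), CCND2 by 1.42 ± 0.04 (adjusted p = 1.5e-32) and CCND1 by 1.75 ± 0.04 (adjusted p = 8e-36). In lipid handling, 8 of 22 tested genes were higher (36.4%) and 10 lower (45.5%), against 28.7% and 24.2% of all tested genes. The higher ones included the cholesterol exporter ABCA1 at 4.19 ± 0.05 (adjusted p = 7.7e-47). The lower ones numbered 4 when scaled by library totals alone. The 10 act in cholesterol synthesis and uptake or control it, with SQLE, squalene epoxidase, the most changed at -2.17 ± 0.03 (adjusted p = 1.9e-44).

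**Figure D3:**
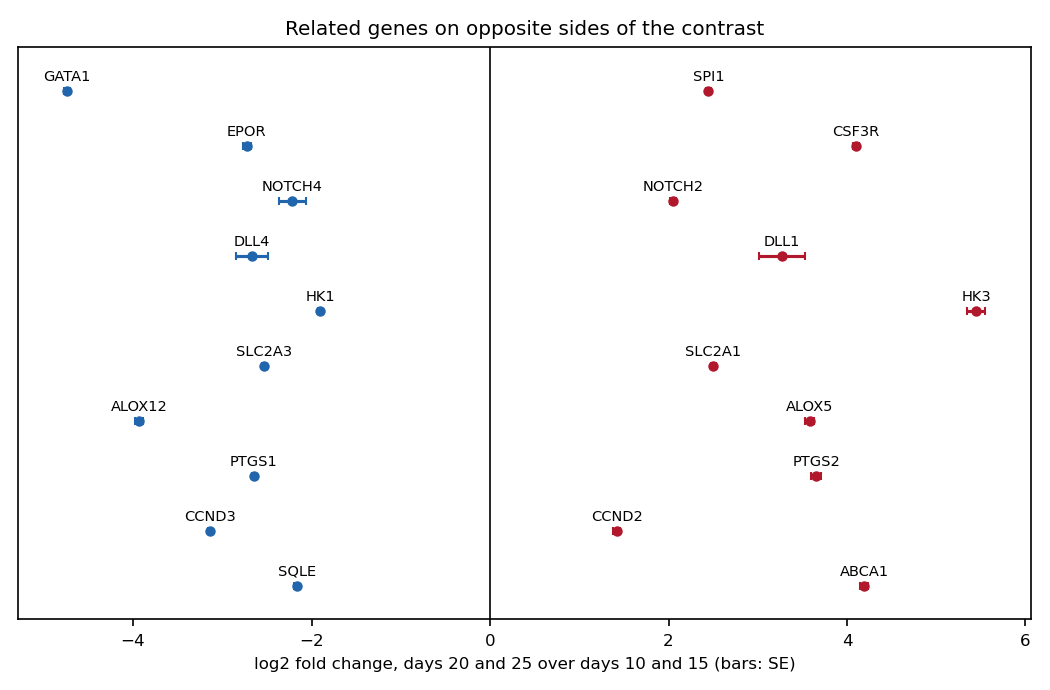
Log2 fold change of late over early days, with bars for the SE, for 10 pairs of related genes chosen for their opposite signs, 1 pair to a line, the higher gene in red and the lower in blue. CSF3R lies at 4.10 and EPOR at -2.73, and no interval of 1 SE reaches 0.

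The shape of the switch within the late and the early days was read for each side. Of the 5787 late-higher genes, 2359 (40.8%) were higher and 828 (14.3%) lower at day 25 than at day 20, where 24.5% of all tested genes were higher and 25.1% lower (49.7% either way). Of the 4891 late-lower genes, 1635 (33.4%) were lower still at day 25 and 603 (12.3%) higher. Between the early days, 2646 of the late-lower genes (54.1%) were higher at day 15 than at day 10 and 930 (19%) were lower. Of the late-higher genes, 2215 (38.3%) were higher at day 15 and 1416 (24.5%) lower. Over all tested genes, 42.4% were higher and 30.8% lower at day 15 (73.2% either way). These comparisons share the 4 days with the rule, which limits how far a day may move towards the other side, so the shares are a description.

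The late-higher genes took 30.8% to 31% of all counts at day 20 and 38.7% to 38.8% at day 25, against 9.9% at day 10 and 8.83% to 8.94% at day 15. Those with nearest late and early days at least 2-fold apart numbered 2656 (13.2% of tested genes) and took 13.6% to 13.7% at day 20 and 20.6% at day 25, against 1.65% to 1.66% at day 10 and 2.22% to 2.26% at day 15. Late-lower genes took 21.8% to 22% at day 20 and 19.2% at day 25, against 41.1% at day 10 and 52.1% to 52.3% at day 15. Their 1252 members at least 2-fold apart (6.2% of tested genes) took 3.11% to 3.19% at day 20 and 2.56% to 2.6% at day 25, against 14.7% at day 10 and 24% at day 15, and 794 of them (63.4%) were higher at day 15 than at day 10.

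**Figure D4:**
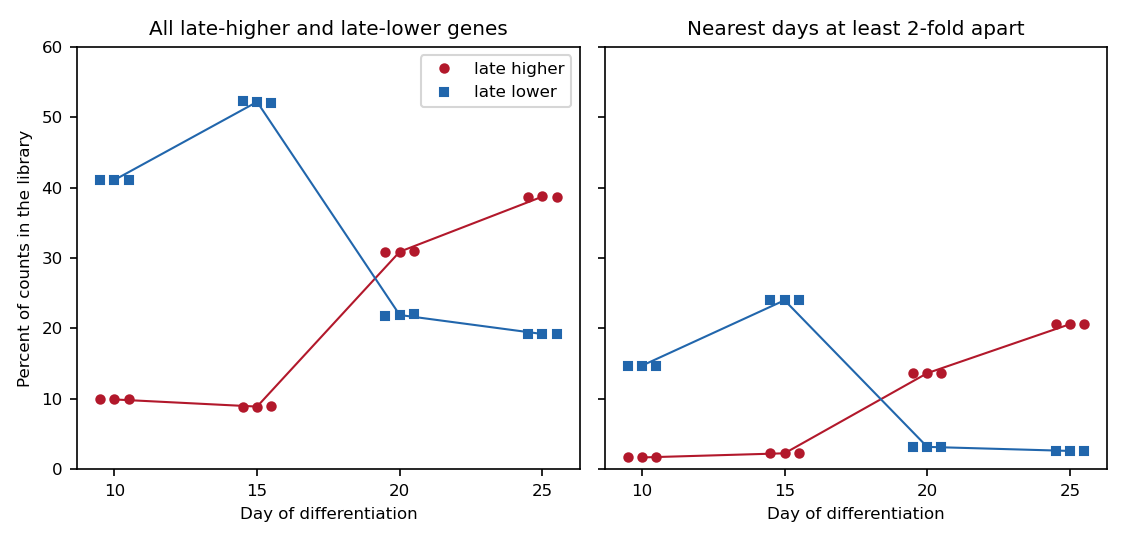
Share of all counts, in percent, taken by the late-higher and late-lower genes in each of the 12 libraries, by day in order from 10 to 25, for all of them and for those with nearest late and early days at least 2-fold apart. The late-lower genes peak at day 15 at 52.1% to 52.3%, and the late-higher genes are highest at day 25.

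Genes that stepped between days 15 and 20 while changing little within each side were a minority. The pool was genes of the switch without overlap of libraries and with a mean of at least 10 CPM on the higher side. Clone, pseudogene and antisense names were left out. In this pool, 793 of 2508 late-higher genes and 1150 of 2397 late-lower genes differed by under 1.5-fold within each side. Early differences between days both under 1 CPM, as for CD209 and FPR3, were set aside. Over all tested genes, late libraries lay wholly above early ones for 4181 (20.7%) and wholly below for 3247 (16.1%). MME, the cell surface peptidase CD10, lay between 126 and 186 CPM over the late libraries (median 159) and between 5.97 and 8.85 CPM over the early ones (median 7.08), a log2 change of 4.42 ± 0.05 (adjusted p = 2.2e-46). CD209, a lectin of macrophages and dendritic cells also called DC-SIGN, lay between 14.1 and 19.1 CPM over the late libraries (median 16.5) and between 0 and 0.506 CPM over the early ones (median 0). The late libraries of both genes were clear of the early ones, and the mean of CD209 was 126-fold higher (adjusted p = 3.8e-27). ACE, a peptidase of the vessel wall and of macrophages, changed by 4.08 ± 0.06 (adjusted p = 3e-41), FPR3, a formyl peptide receptor, by 5.07 ± 0.16 (adjusted p = 3.4e-29), and IGFBP5, which binds insulin-like growth factors, by 4.32 ± 0.05 (adjusted p = 1.8e-43).

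On the lower side, DAAM1, a formin that assembles actin, lay between 18.4 and 27 CPM over the late libraries (median 23.1) and between 391 and 430.3 CPM over the early ones (median 414), a log2 change of -4.20 ± 0.03 (adjusted p = 2.5e-53). RAP1B, the small GTPase that activates platelet integrins, lay between 188 and 219 CPM over the late libraries (median 199) and between 1954 and 3004 CPM over the early ones (median 2415), a change of -3.58 ± 0.03 (adjusted p = 1.2e-53). The late libraries of both genes lay about level and far below the early ones. TXK, a kinase of the Tec family known from T cells, changed by -3.43 ± 0.11 (adjusted p = 3.1e-24), and FUT8, the core fucosyltransferase, by -3.55 ± 0.03 (adjusted p = 4.5e-49).

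Genes at the edge of the rule had nearest late and early days about level, whatever the size of their late change. They were sought among genes called in the contrast with at least 10 CPM on some day. MYO7B was just inside on the higher side and averaged 9.67 ± 1.75 CPM at day 20 and 10.9 ± 1.37 CPM at day 25, against 0.0887 ± 0.1 CPM at day 10 and 9.59 ± 0.79 CPM at day 15 (SD, n = 3 each). C5orf22 was just inside on the lower side and averaged 23.7 ± 0.15 CPM at day 20 and 24.7 ± 1.82 CPM at day 25, against 37.8 ± 0.97 CPM at day 10 and 24.6 ± 1.4 CPM at day 15, the order being taken on the log2 scale. ZNF414 and TRIM71 were just outside. ZNF414 averaged 12 ± 2.45 CPM at day 20, against 12 ± 0.28 CPM at day 10, and TRIM71 averaged 5.53 ± 0.42 CPM at day 20, against 5.55 ± 0.81 CPM at day 15.

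Genes of the Notch pathway, whose receptors bind the DLL4 in the medium, moved both ways. Of 21 tested, 7 were higher (33.3%) and 9 lower (42.9%), against 28.7% and 24.2% of all tested genes. The other 5 crossed, and the list median was -0.50, or -0.16 without day 15. Among receptors, NOTCH2 lay between 246 and 311 CPM over the late libraries (median 280.3) and between 59.5 and 71.6 CPM over the early ones (median 67.4), a log2 change of 2.05 ± 0.03 (adjusted p = 4.6e-41), while NOTCH1 changed by 0.32 ± 0.03 (adjusted p = 8.1e-14) and NOTCH4, an endothelial receptor, by -2.21 ± 0.15 (adjusted p = 5.6e-17). The ligand DLL4 averaged 0.848 ± 0.147 CPM at day 20 and 0.871 ± 0.184 CPM at day 25, against 11.6 ± 1.44 CPM at day 10 and 2.6 ± 0.85 CPM at day 15 (SD, n = 3 each). DLL1, another ligand, was higher by 3.27 ± 0.26 (adjusted p = 4.5e-15). Among known targets, HES1, HES4, HEY2 and NRARP were lower, DTX1 was higher, and HES5, HEY1 and HEYL crossed. HES4 lay between 3.44 and 4.07 CPM over the late libraries (median 3.78) and between 9.09 and 65.7 CPM over the early ones (median 35.4), a change of -2.73 ± 0.08 (adjusted p = 4.7e-31). DTX1 lay between 4.50 and 13.7 CPM over the late libraries (median 8.87) and between 0.442 and 1.13 CPM over the early ones (median 0.611), a change of 3.48 ± 0.17 (adjusted p = 2e-22). PTCRA, the pre-T-cell receptor chain and a Notch target, averaged 1.65 ± 0.26 CPM at day 20 and 6.11 ± 0.21 CPM at day 25, against 7.48 ± 0.5 CPM at day 10 and 183 ± 7.39 CPM at day 15 (SD, n = 3 each).

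Of the 20 tested T-lineage transcription factors, 8 were higher (40%) and 2 lower (10%), against 28.7% and 24.2% of all tested genes. The other 10 crossed, and the list median was 0.26, or 0.77 without day 15. TCF7, an early T-lineage factor, lay between 5.71 and 11.1 CPM over the late libraries (median 8.65) and between 2.53 and 5.00 CPM over the early ones (median 4.04), without overlap, a change of 1.07 ± 0.13 (adjusted p = 3.9e-10). BCL11B, which seals T-lineage commitment, stayed near 1 CPM or under, between 0.287 and 1.04 CPM over the late libraries (median 0.736) and between 0 and 0.253 CPM over the early ones (median 0.155), with a change of 2.23 ± 0.49 (adjusted p = 7.3e-05). GATA3 crossed. ZBTB16, the PLZF factor of innate-like T cells, was lower, with a log2 change of -3.44 ± 0.03 (adjusted p = 2.8e-48). It averaged 34.2 ± 2.13 CPM at day 20 and 14.5 ± 0.55 CPM at day 25, against 232 ± 1.86 CPM at day 10 and 252 ± 7.66 CPM at day 15 (SD, n = 3 each).

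None of the 3 tested T-cell receptor constant genes belonged to the switch, although 1, TRGC1, passed as higher when scaled by library totals alone. TRDC, the constant region of the δ chain, averaged 0.109 ± 0.102 CPM at day 10, 5.81 ± 0.43 CPM at day 15, 1.46 ± 0.55 CPM at day 20 and 0.379 ± 0.299 CPM at day 25 (SD, n = 3 each). TRGC1, of the γ chain, averaged 1.69 ± 0.15 CPM at day 10, 13.2 ± 2.46 CPM at day 15, 24.8 ± 1.7 CPM at day 20 and 10 ± 0.87 CPM at day 25. Day 15 was the peak of TRDC and day 20 that of TRGC1, whose reads may be shared with TRGC2. CD3E had 33 counts at day 20 and 17 at day 25, and none at days 10 and 15, so its late mean was at least 14.0-fold higher than the floor of 3 counts over the 6 early libraries (adjusted p = 1.8e-05). RAG1, of the recombinase, was lower, with a log2 change of -0.62 ± 0.16 (adjusted p = 0.00047). RAG2, its partner, had too few counts to be tested, with 33 over the late libraries and 2 over the early ones.

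Of 17 tested genes of CD3 and receptor signalling, 7 were higher (41.2%) and 6 lower (35.3%), against 28.7% and 24.2% of all tested genes. The other 4 crossed, and the list median was -0.04, or 0.57 without day 10 and 0.88 without day 15. The lower members were the adaptors LAT, GRAP2 and LCP2, the kinases FYN and PRKCQ, and UBASH3A, and all but UBASH3A are known in platelets as well. LAT lay between 24.0 and 50.1 CPM over the late libraries (median 38.3) and between 298 and 896 CPM over the early ones (median 589), a change of -3.87 ± 0.03 (adjusted p = 1.3e-51). GRAP2 lay between 8.76 and 23.3 CPM over the late libraries (median 15.7) and between 125 and 1849 CPM over the early ones (median 956), a change of -5.04 ± 0.03 (adjusted p = 3.2e-56). All early libraries of both were above all late ones, as were those of the summed megakaryocyte markers, whose part in these falls was not tested. PTPRC, the CD45 antigen of all white cells, was higher by 3.48 ± 0.03 (adjusted p = 1.8e-50), beside the macrophage and neutrophil markers above, whose part was not tested either. Of 13 tested cytotoxic and natural killer genes, 2 were higher, 1 lower and 10 crossed. NKG7, a granule membrane protein, lay between 42.6 and 71.9 CPM over the late libraries (median 57.6) and between 1.52 and 33.4 CPM over the early ones (median 16.8), a change of 2.83 ± 0.06 (adjusted p = 7.1e-35). IFNG had no count over the late libraries and 3 over the early ones, and GZMA had 4 late and 8 early counts.

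**Figure D5:**
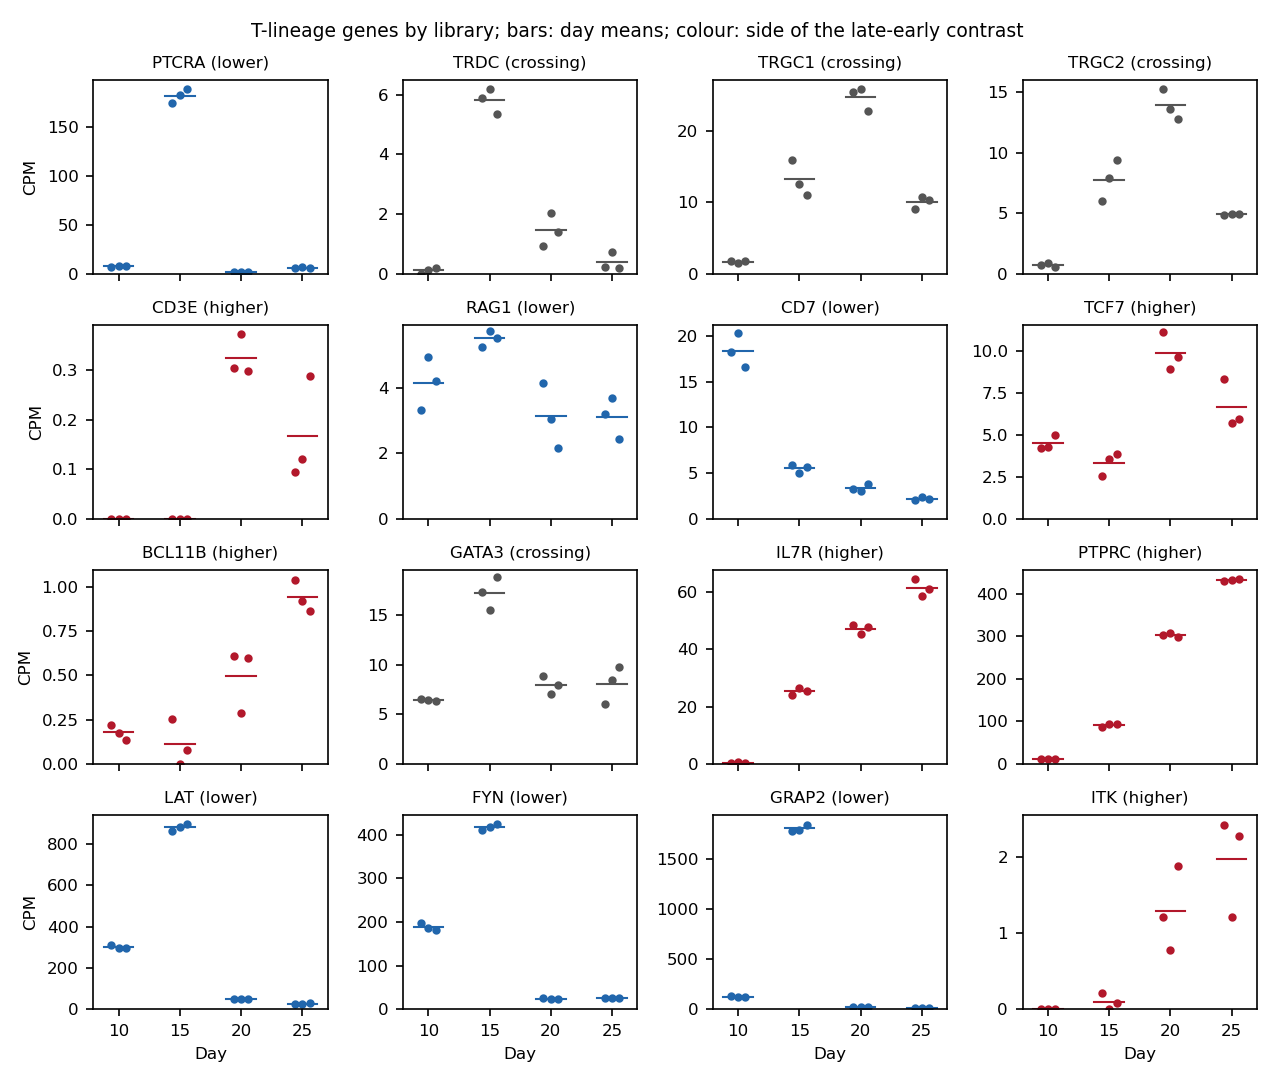
CPM of 16 T-lineage genes, 1 panel a gene on its own linear axis from 0, by day in order from 10 to 25. Points are libraries, bars are day means, and colour marks genes higher (red), lower (blue) or crossing (grey). PTCRA, TRDC and LAT peak at day 15 and TRGC1 at day 20, and CD3E stays under 1 CPM in all libraries.

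Genes outside blood also belonged to the rise. Epithelial genes were higher in 14 of 18 tested (77.8%), against 28.7% of all tested genes, and none was lower, with a median of 2.01. Genes of secreted proteins of liver and yolk sac were higher in 15 of 19 (78.9%). The median of the liver list was 3.19, or 2.98 with days at 0 counts at the floor and 2.02 without day 20. CDH1, epithelial cadherin, averaged 164 ± 4.56 CPM at day 20 and 29.1 ± 0.84 CPM at day 25, against 0.83 ± 0.19 CPM at day 10 and 0.416 ± 0.371 CPM at day 15 (SD, n = 3 each). AFP, the fetal serum protein, averaged 419 ± 3.6 CPM at day 20 and 83.2 ± 0.94 CPM at day 25, against 11.3 ± 0.64 CPM at day 10 and 53.5 ± 2.18 CPM at day 15 (SD, n = 3 each). Both were higher at day 20 than at day 25, and of the liver list's members 12 were lower at day 25 than at day 20. Stromal and matrix genes were higher in 15 of 22 tested (68.2%), with a median of 1.62. COL3A1, a fibrillar collagen, lay between 2177 and 4163 CPM over the late libraries (median 3162) and between 537 and 664 CPM over the early ones (median 602), a change of 2.33 ± 0.02 (adjusted p = 6.1e-51). FN1, fibronectin, which macrophages also make, averaged 731 ± 15.8 CPM at day 20 and 8837 ± 121 CPM at day 25, against 235 ± 17.6 CPM at day 10 and 376 ± 4.92 CPM at day 15 (SD, n = 3 each).

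All 11 tested genes of the HOXA cluster on chromosome 7, which pattern the body axis and mark stages of blood progenitors, were higher, with a median of 1.98. The share over all tested genes was 28.7%, and 5 of the 11 had nearest days at least 2-fold apart. Some stayed under 1 CPM, such as HOXA7, which averaged 0.347 CPM over the late libraries and 0.129 CPM over the early ones. HOXA10 averaged 18.7 ± 0.63 CPM at day 20 and 5.17 ± 0.3 CPM at day 25, against 1.45 ± 0.44 CPM at day 10 and 2.04 ± 0.81 CPM at day 15 (SD, n = 3 each). HOXA9, a self-renewal factor of definitive blood progenitors, changed by 1.67 ± 0.15 (adjusted p = 3.7e-13). Overlapping transcripts of the cluster may share reads. Of 13 tested genes of fetal growth and the LIN28 axis, 4 were higher (30.8%), IGF2, H19 and HMGA2 among them, 3 were lower (23.1%) and 6 crossed. These shares lay near the 28.7% higher and 24.2% lower of all tested genes. LIN28A, an RNA-binding protein of fetal cells, averaged 5.07 ± 0.49 CPM at day 20 and 2.59 ± 0.92 CPM at day 25, against 299 ± 1.52 CPM at day 10 and 30.1 ± 0.56 CPM at day 15 (SD, n = 3 each), while LIN28B crossed. The epithelial, stromal and liver markers given above moved with the HOXA genes, and their part in that rise was not tested.

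Genes of proliferation were largely outside the switch, with 23 of 25 tested crossing, against 8941 of 20183 over all tested genes. None was higher, and BUB1 and MCM7 were lower. The early days disagreed on this list: set against day 15 alone, 19 were higher and 2 lower, and set against day 10 alone, all 25 were lower. MKI67, a marker of cycling cells, averaged 835 ± 52.7 CPM at day 10, 160 ± 2.04 CPM at day 15, 295 ± 11.1 CPM at day 20 and 206 ± 7.33 CPM at day 25 (SD, n = 3 each), so its late days lay between its early ones. Interferon-stimulated genes were another list in which many crossed (13 of 22). Of the others, 7 were lower (31.8%) and 2 higher (9.09%), against 24.2% and 28.7% of all tested genes. Set against day 15 alone, 20 were lower. IFIT1 averaged 50.5 ± 1.71 CPM at day 20 and 12.1 ± 0.72 CPM at day 25, against 63.4 ± 3.77 CPM at day 10 and 2491 ± 25 CPM at day 15 (SD, n = 3 each).

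By annotation class, late-higher genes were 31.4% of 15917 tested protein-coding genes and late-lower genes 23%, against 19.4% and 28% of 1462 lincRNA genes and 17.7% and 28.1% of 1789 antisense genes. Scaled by library totals alone, the shares were 37% higher and 14.1% lower for protein-coding genes and 22.5% and 23.2% for lincRNA genes. Chromosome 21 held the largest share of late-higher genes, 89 of 234 (38%, with 17.9% lower), and chromosome 19 the smallest, at 23.5%, with 30.1% lower, leaving out the mitochondrial genome. By library totals alone, chromosome 21 had 42.7% higher and 11.5% lower, and chromosome 19 had 29% higher and 16.9% lower. The strand used in counting is not given in the sources used here, so antisense genes and their partners cannot be told apart.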

How the data were processed

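RNA of 12 libraries, 3 per day at days 10, 15, 20 and 25, was sequenced as single reads from ligation-mediated libraries, per the labels' protocols. The authors deposited raw counts per gene and library, not normalised, per the file headers, with GRCh38 as the build in the submitters' processing notes. Aligner, counter, annotation and use of strand are not given in the sources used. The table held 36601 gene IDs, 25321 with a symbol, and IDs without one held 0.441% of counts and stayed in the test. Coordinates of genes are from GENCODE on GRCh38 and promoters from RefSeq on GRCh38.p14.

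Counts were fitted in R 4.3.3 with edgeR 4.0.16 (filterByExpr with a minimum count of 10, TMM factors from 0.753 to 1.172, robust glmQLFit, 1 coefficient per day, no covariate), which left 20183 genes. The mean of days 20 and 25 was set against that of days 10 and 15 by glmQLFTest, with Benjamini-Hochberg adjustment over all tested genes and a threshold of 0.05. Sides were read from day means of log2 CPM with a prior count of 2, and the distance of the nearest days gave the 2-fold condition. The floor was 3 counts. Floors cover counting error only, while an SE is that of the fit and includes the spread between libraries. On simulated counts the test was checked for known changes. Alternatives were other scalings, filters, thresholds, DESeq2 1.42.0, limma 3.58.1 (voom), a replicate block, thinned libraries, no condition on sides, and leaving out each library or day. Figures were drawn with matplotlib 3.10.9 and tables made with pandas 2.3.3 in Python 3.11.15.

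The comparison, the 40 gene lists and the naming rule were chosen with earlier results of these data known. The rule named, per direction, the 12 largest changes and the 8 largest steps among symbols with at least 10 CPM on the higher side and no overlap of libraries, up to 3 genes per list and direction, a fixed panel, and the genes at the edge of the side condition. Genes named from the lists beyond these, and the pairs and families, were chosen after their values were seen.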

Additional observations from a re-analysis of the deposited data

How the results depend on the processing

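Of the counts, lists and genes recomputed, none of the 10678 genes changed direction while staying called under any scaling, filter, test or left-out library, and 2 did without day 25. Shared genes were 83.8% of the main set when scaled by library totals alone and at least 96.9% when 1 library was left out. Late-lower genes numbered 4891, against 3245 by library totals alone, 2690 at a change of at least 2-fold, 3247 with every late library under every early one, 3138 with all 4 pairs of late and early days called and 7868 with no condition on sides. With no condition on sides, 8921 genes also differed between days 25 and 20 (5425 with it) and 12221 between days 15 and 10 (7207 with it). Leaving out a whole day was tried after the data were seen. Without day 10 there were 7371 late-lower genes, 4035 at least 2-fold apart (1252 with all days), and 8394 that differed between days 25 and 20. Without day 15 the genes at least 2-fold apart were 4371 higher and 2002 lower, and 8749 differed between days 25 and 20, and without day 20 there were 1935 lower. These fits have fewer days to satisfy. Leaving out 1 library gave 5823 to 5910 late-higher and 4848 to 4919 late-lower genes. Replicate numbers did not pair libraries: deviations of same-numbered libraries correlated between -0.016 and 0.016, and 4 of 12 libraries matched their own number best. With the replicate block there were 5768 late-higher and 4870 late-lower genes. The fit with 2 groups gives no comparison within a side.

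The log2 change of late over early days turned direction for few named genes, and the cause was not tested. TRDC was at -0.08 with a wide error, against 0.20 by library totals alone, 0.05 with no filter on low counts and 0.05 by limma-voom, between -0.54 and 0.24 over left-out libraries, 2.76 without day 15 and 0.99 without day 25. TCF12 was at 0.03 by library totals alone. Without day 10, MKI67 was at 0.62, and without day 15, GATA3 was at 0.32 and PRF1 at -0.22. Genes at a few counts a day, such as CD3E and BCL11B, are limited by depth.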

Other observations

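Families picked after their values were seen add to the 2 sides. Over all tested genes, 28.7% were higher and 24.2% lower. Of 19 tested matrix metalloproteinase genes, 17 were higher over the late days and none was lower, with a median log2 change of 2.54. Of 50 keratin genes, which build the epithelial cytoskeleton, 14 passed the filter on low counts. Of these 14, 11 were higher, with a median of 4.35, and Toll-like receptor genes were higher in 8 of 10 tested. A gene near 0 over the early days, such as KRT7, could pass the filter only through its late libraries. Counts of higher members in such families are therefore a description. The clustered protocadherins, adhesion proteins of neural and epithelial cells, were higher in 22 of 34 tested and lower in 1, or in 25 and none by library totals alone. On the lower side, 6 of 7 tested APOBEC3 genes, cytidine deaminases that restrict viruses, were lower and 1 was higher, or 5 and 1 by library totals alone, and reads may be shared among them. Of 475 zinc finger genes with a ZNF symbol, 199 were lower and 65 higher, but 90 and 88 by library totals alone, so that split rests on the scaling.

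The shares of all tested genes to set beside the lists below were 28.7% higher and 24.2% lower. Among lists not described above, genes of γδ and innate-like fate were higher in 8 of 13 tested, among them MAF and SOX13, and lower in 1. Another 4 of that list's 17 genes were not tested. MAF rose beside the macrophage list, whose part in its rise was not tested, and TRDC peaked at day 15. Phagocyte oxidase and signalling genes were higher in 18 of 23 and lower in 3. Inflammatory cytokine and chemokine genes were higher in 13 of 24 and lower in 4 (CCL5, CXCL2, CXCL3 and TGFB1), and immediate early and heat shock genes were higher in 9 of 22 and lower in 2. Mast cell, basophil and eosinophil genes were higher in 11 of 21, with 10 crossing. Stem and progenitor genes were higher in 7 of 17 and lower in 1, MYCN, with a median of 0.37 that turned to -0.34 under the stricter filter and to -0.27 without day 20. Pluripotency genes were higher in 3 of 13 and lower in 2.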
